A study of Mus musculus with 20 samples.

Results

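Genes of motile cilia and of the ependyma were followed in RNA sequencing data from the brains of aged mice 7 weeks after stroke. The members were 65 protein-coding genes of the 46078 genes in the count tables. Of these, 58 were taken by symbol alone, namely 30 Cfap genes (cilia and flagella associated proteins), 15 Dnah genes (axonemal dynein heavy chains), 8 Rsph genes (radial spoke proteins) and 5 Tekt genes (tektins). The other 7 (Foxj1, Ccdc153, Tmem212, Dynlrb2, Iqca, Nek5 and Ttc12) were chosen by their values in these same libraries, so their levels are given as a description, with no test. The whole module was also proposed with results of these data known, and the tests below that touch the 58 family genes come from fits over all genes. Cfap99 matched the rule by symbol and was not analysed here.

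All mice were wild-type C57BL/6J, 18 months old, and all had received a DH stroke (the distal branch of the middle cerebral artery was closed and the animal then kept at low oxygen). Starting 1 week later they were injected under the skin 3 times per week for 6 weeks with PBS (vehicle) or with 4 g/kg of HPBCD (hydroxypropyl-β-cyclodextrin, a ring of sugars that carries cholesterol). The peri-infarct region, dissected after the infarct itself had been removed, and the contralateral tissue of the same animals each gave 5 libraries per treatment, 20 in all. Each dissection was bulk tissue with no sort of cells, so that more cells of a type and more RNA per cell cannot be told apart in any value below. Within a treatment, the peri-infarct and contralateral libraries of the same number carry the same identifier in the deposited records and are taken here as the same animal.

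A motile cilium is a beating hair built on a ring of microtubule doublets around a central pair. Dynein heavy chains are the motors that slide the doublets, radial spokes relay signals from the central pair to the motors, and tektins are filaments that lie inside the doublet wall. In the brain, motile cilia stand in tufts on ependymal cells, which line the ventricles and move cerebrospinal fluid, and on the epithelium of the choroid plexus. Foxj1 is a forkhead transcription factor that switches on the motile cilia programme, and RFX factors bind many promoters of ciliary genes.

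Promoters of some members are shown because RFX factors are known to bind a short word in many promoters of ciliary genes. Whether they act on the members here was not tested. Windows from 250 bases before to 50 bases after the start of each gene were taken from RefSeq on GRCm38.p6, and 53 of the 65 members had at least 1. The word searched was GTTGCC, a half-site of RFX factors, on both strands, so that GGCAAC marks the reverse strand. It was found in 22 of these 53 genes (41.5%) and in 3821 of all 27025 genes with a window of this length (14.1%). The forkhead word GTAAACA was found in 4 of the 53 members (7.55%) and in 4.05% of all genes. Neither word can overlap the other on either strand. The letters were chosen with several of these promoters in view, a match is no proof of binding, and no test was made. In the stretches below, read 5′ to 3′ on the strand of the gene, capitals mark each half-site. They come from 4 of the genes named one by one (Ccdc153, chr9:44240468-44240587, plus strand; Dynlrb2, chr8:116504907-116505026, plus strand; Iqca, chr1:90153474-90153593, minus strand; Nek5, chr8:22125172-22125291, minus strand), from 2 family genes that rose (Tekt1, chr11:72361855-72361974, minus strand; Cfap161, chr7:83794843-83794962, minus strand), from 1 that fell slightly (Cfap298, chr16:90934975-90935094, minus strand), and from 2 near-identical dynein genes that moved in opposite directions (Dnah7b, chr1:46066633-46066752, plus strand; Dnah7c, chr1:46425268-46425387, plus strand).
Ccdc153: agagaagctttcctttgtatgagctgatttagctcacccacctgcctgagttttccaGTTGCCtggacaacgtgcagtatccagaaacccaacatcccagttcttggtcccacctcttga
Dynlrb2: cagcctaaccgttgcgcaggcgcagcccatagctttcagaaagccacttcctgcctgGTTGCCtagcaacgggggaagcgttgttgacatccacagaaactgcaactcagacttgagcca
Iqca: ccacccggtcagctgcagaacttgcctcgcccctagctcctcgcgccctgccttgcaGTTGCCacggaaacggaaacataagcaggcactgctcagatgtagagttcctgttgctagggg
Nek5: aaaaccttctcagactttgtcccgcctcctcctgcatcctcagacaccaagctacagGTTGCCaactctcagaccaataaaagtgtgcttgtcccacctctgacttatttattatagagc
Tekt1: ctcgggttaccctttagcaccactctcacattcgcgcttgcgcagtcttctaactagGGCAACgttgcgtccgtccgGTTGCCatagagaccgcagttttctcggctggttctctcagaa
Cfap161: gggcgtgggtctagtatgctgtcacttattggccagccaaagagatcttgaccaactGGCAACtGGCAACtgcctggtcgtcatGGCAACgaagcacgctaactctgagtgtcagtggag
Cfap298: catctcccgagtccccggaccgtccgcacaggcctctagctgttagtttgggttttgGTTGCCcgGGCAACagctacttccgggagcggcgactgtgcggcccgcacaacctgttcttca
Dnah7b: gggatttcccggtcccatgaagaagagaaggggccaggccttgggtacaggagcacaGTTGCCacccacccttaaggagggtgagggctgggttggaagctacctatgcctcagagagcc
Dnah7c: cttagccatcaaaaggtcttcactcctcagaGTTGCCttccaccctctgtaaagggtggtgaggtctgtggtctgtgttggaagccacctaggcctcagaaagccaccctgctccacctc
The first half-site began 152 bases before the start in Ccdc153, 51 in Dynlrb2, 100 in Iqca, 167 in Nek5, 35 in Tekt1, 66 in Cfap161, 188 in Cfap298, 163 in Dnah7b and 219 in Dnah7c. The window of Cfap298 held 4 half-sites, of which the 2 farther from the start are in the stretch shown, and that of Cfap161 held 3. These genes differed in both level and direction of change (below). The half-site was present in the promoters of both Dnah7b and Dnah7c, so that its presence did not separate these copies.

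Gene counts ran from 14445021 to 22171627 per library, and values are given as CPM (counts per 1000000 gene counts, scaled with TMM factors over the 20 libraries). A count of 3, used as a floor, stood for 0.135 to 0.208 CPM, which covers counting error alone. HPBCD contralateral replicate 4 stood apart in its read classes, with 9.5% of read pairs in no annotated gene. Of the 65 members, 53 had a mean of at least 1 CPM, and 5 (Cfap97d1, Dnah14, Rsph14, Rsph6a and Tekt3) passed the filter on low counts in no comparison.

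Foxj1 (ENSMUSG00000034227, chromosome 11, 116330704 to 116335399, minus strand) was the most abundant of the 7 genes named one by one. Its level was 8.63, 5.01, 16.8, 1.96 and 5.83 CPM in vehicle contralateral replicates 1 to 5, and 29.6, 17.2, 21.9, 14.5 and 28.3 CPM in the vehicle peri-infarct replicates. In HPBCD-treated mice it was 3.6, 5.05, 7.89, 5.69 and 4.28 CPM in contralateral tissue and 54.3, 41.1, 78.8, 59.8 and 62.0 CPM in the peri-infarct region. The HPBCD peri-infarct libraries lay above all 15 others, and the vehicle groups overlapped through vehicle contralateral replicate 3 and vehicle peri-infarct replicate 4.

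Ccdc153 (ENSMUSG00000070306, chromosome 9, plus strand), which encodes a coiled-coil protein found in ependymal cells, split the vehicle libraries more sharply. Vehicle peri-infarct replicates 1, 2 and 5 had 10.7, 8.83 and 9.35 CPM, whereas replicates 3 and 4 had 0.844 and 0.603 CPM. Vehicle contralateral replicate 3 had 9.94 CPM, and the other 4 contralateral libraries of that treatment had 0.0 to 1.22 CPM. All HPBCD peri-infarct libraries were high, at 18.8, 16.6, 32.6, 21.2 and 25.7 CPM, and all HPBCD contralateral libraries were under the floor, at 0.0 to 0.0769 CPM.

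Tmem212 (ENSMUSG00000043164, chromosome 3, 27866066 to 27896368, minus strand), which encodes a membrane protein, had the same split at a lower level. It was listed at 2.76, 2.27, 0.337, 0.0 and 2.23 CPM in vehicle peri-infarct replicates 1 to 5 and at 2.65 CPM in vehicle contralateral replicate 3, where the other 4 had 0.0 to 0.166 CPM. In HPBCD-treated mice it ranged from 2.5 to 7.89 CPM in the peri-infarct region, and a single read pair was counted over the 5 contralateral libraries. Iqca (ENSMUSG00000026301, chromosome 1, 90042132 to 90153401, minus strand), which carries a calmodulin-binding motif and an ATPase domain, was 3.53, 4.65, 0.169, 0.603 and 3.08 CPM in vehicle peri-infarct replicates 1 to 5 and 3.25 CPM in vehicle contralateral replicate 3. Its HPBCD groups were 5.76 to 10 CPM in peri-infarct and 0.114 to 0.255 CPM in contralateral tissue. Thus the same 4 vehicle libraries, 3 peri-infarct and 1 contralateral, had the 4 highest vehicle values of Ccdc153, Tmem212 and Iqca.

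The remaining 3 genes followed that split less. Ttc12 (ENSMUSG00000040219, chromosome 9, 49436963 to 49486225, minus strand), which is needed to assemble dynein arms, was 3.87 to 5.46 CPM in the vehicle peri-infarct libraries, with replicate 3 highest, and 1.36 to 3.07 CPM in the vehicle contralateral ones, so these groups did not overlap. Its mean was 10 CPM ± 2.21 (SD, n = 5) in HPBCD peri-infarct tissue and 1.52 ± 0.249 in HPBCD contralateral tissue. Nek5, a kinase of the NIMA family, was 0.836 to 1.34 CPM in all 5 vehicle peri-infarct libraries, overlapping with vehicle contralateral replicate 3 at 1.15 CPM, and 2.72 to 6.14 CPM in the HPBCD peri-infarct ones. Dynlrb2, a light chain of cytoplasmic dynein, was 1.43, 1.03, 1.18, 0.279 and 1.9 CPM in the vehicle peri-infarct replicates and 1.7 to 4.44 CPM in the HPBCD ones, and 1.93 CPM in vehicle contralateral replicate 3, so these groups overlapped.

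**Figure D1:**
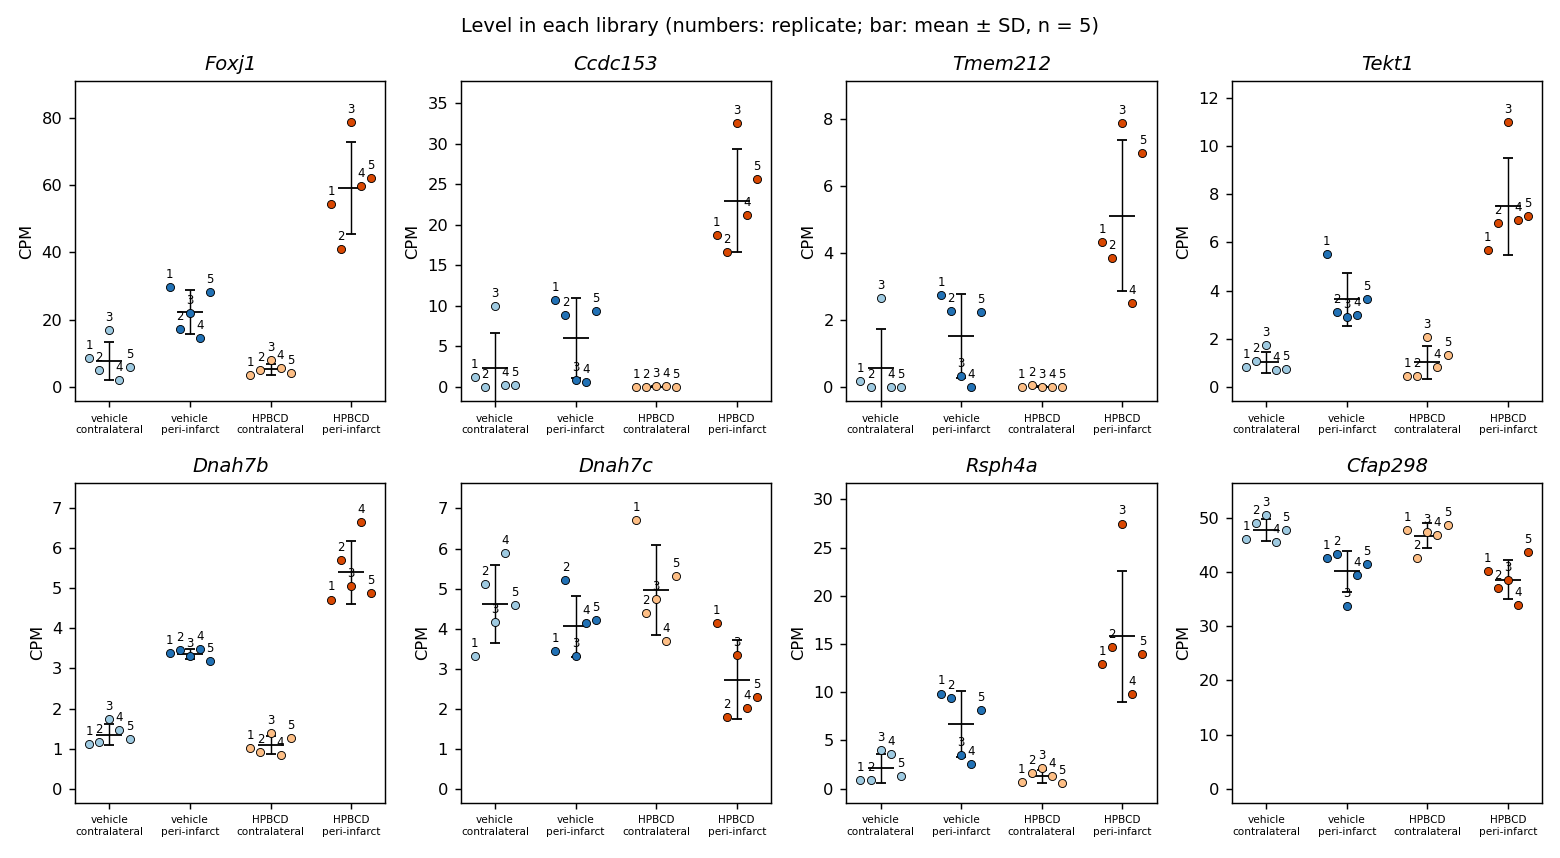
Level (CPM, vertical axis from about 0) of 8 members in each of the 20 libraries by group; points are libraries numbered by replicate, and bars are the mean ± SD of 5, cut at the lower edge where the SD exceeds the mean. Ccdc153 is at 0.844 and 0.603 CPM in vehicle peri-infarct replicates 3 and 4, where Tekt1 (2.92 and 2.97 CPM) and Dnah7b (3.32 and 3.48 CPM) are close to the other libraries of that group.

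In HPBCD-treated mice, most of the axonemal genes were more abundant in the peri-infarct region than in contralateral tissue. Of the 52 family genes that passed the filter, 41 were called higher and 3 lower (edgeR quasi-likelihood test, adjusted p under 0.05 over all genes), beside 30.3% of all genes called higher and 24.3% called lower. Their median log2 fold change was 2.28, and that of all genes tested was 0.03. By family, 23 Cfap, 12 Dnah, 4 Rsph and 2 Tekt genes were higher, and the lower ones were Cfap36, Cfap298 and Dnah7c. The filter asks for 0.533 CPM in 5 of the 10 libraries. Of the genes tested, 10 (Cfap53, Cfap58, Cfap73, Cfap77, Cfap97d2, Cfap161, Cfap221, Dnah11, Dnah12 and Tekt4) reached this in 0 contralateral libraries. They passed through the peri-infarct group alone and so had to differ, and for this comparison they are described by their values, with no test. Of the 34 family genes that reached it in all 5 contralateral libraries, 23 were called higher (67.6%), beside 27.5% of all such genes, and their median log2 fold change was 1.32 (-0.02 over all such genes).

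Among the motors, Dnah9 and Dnah5, outer arm heavy chains, had the highest CPM of the family in HPBCD peri-infarct tissue. Dnah9 was 10.7, 27.8, 21.8, 10.5 and 14.6 CPM there and 1.48 to 4.68 CPM in contralateral tissue, with no overlap (log2 fold change 2.73 ± 0.35 SE, edgeR adjusted p = 2.88e-05). Dnah5 was 11.4 to 17.5 CPM against 2.0 to 3.47 CPM (2.47 ± 0.18, adjusted p = 8.35e-07). Dnah6, an inner arm chain, had a larger log2 fold change and went from 0.254 to 1.46 CPM in contralateral tissue up to 8.61 to 18.8 CPM (4.05 ± 0.37, adjusted p = 2.54e-06). Dnah2, another inner arm chain, was 5.36 to 9.59 CPM against 1.07 to 1.46 CPM (2.54 ± 0.19, adjusted p = 7.77e-07). Dnah1, an inner arm chain too, rose least of those named (0.54 ± 0.2, adjusted p = 0.0328), its groups overlapped at 7.55 to 15.2 and 5.43 to 9.69 CPM, and leaving out HPBCD contralateral replicate 3, 4 or 5 or peri-infarct replicate 1, 3 or 5 ended the call (adjusted p 0.059 to 0.113), as did no filter (0.47, adjusted p = 0.065).

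The radial spoke genes divided. Rsph1, a spoke head protein, was 18.4, 16.1, 30.3, 19.5 and 20.1 CPM in HPBCD peri-infarct tissue and 1.77 to 3.77 CPM in contralateral tissue (2.89 ± 0.21, adjusted p = 6.97e-07). Rsph4a, also of the spoke head, was 9.84 to 27.5 CPM against 0.628 to 2.16 CPM (3.71 ± 0.36, adjusted p = 3.71e-06), and Rsph9, another spoke head protein, was 11.3 to 13.4 CPM against 4.64 to 6.56 CPM (1.2 ± 0.12, adjusted p = 5.78e-06). Rsph10b had a mean of 6.08 CPM ± 0.63 against 5.18 ± 1.55 and did not pass the test (adjusted p = 0.25).

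Tekt1 was 5.68, 6.81, 11, 6.91 and 7.08 CPM in HPBCD peri-infarct tissue and 0.457 to 2.09 CPM in contralateral tissue (2.94 ± 0.36, adjusted p = 2.33e-05). Tekt4 was lower in level, at 2.13 to 3.49 CPM against 0.0571 to 0.457 CPM, with no overlap. Tekt5, the tektin of highest mean over all libraries, had 2.31 to 6.94 CPM in peri-infarct and 6.83 to 8.69 CPM in contralateral tissue, with a log2 fold change of -0.51 ± 0.22 (adjusted p = 0.0647, and 0.0374 with the animal as a block). It was also called lower under DESeq2 (-0.54, adjusted p = 0.0491), with all 4 groups in 1 fit (-0.51, adjusted p = 0.0487), with no filter (-0.59, adjusted p = 0.0373) and without HPBCD peri-infarct replicate 5 (-0.65, adjusted p = 0.0356), so that its call depended on the setting.

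Cfap77, a protein of the doublet wall, was at or near 0 in HPBCD contralateral tissue. Its counts were 77, 55, 109, 45 and 80 in the HPBCD peri-infarct libraries and 0, 2, 1, 2 and 0 in the contralateral ones, all under the floor of 3 counts. Cfap43, which is needed for the sperm axoneme, was 8.9 to 14.6 CPM against 0.837 to 1.23 CPM (3.43 ± 0.19, adjusted p = 1.9e-07), and Cfap126, a gene that Foxj1 controls, was 8.42 to 17.1 CPM against 0.461 to 2.02 CPM (3.33 ± 0.32, adjusted p = 3.93e-06). All 3 genes were low in contralateral tissue, and in none of them did the HPBCD groups overlap.

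Other genes at the upper end of the region difference, picked after their values were seen, included Dnah11, an outer arm heavy chain. It was 6.06, 6.51, 9.68, 2.92 and 8.06 CPM in HPBCD peri-infarct and 0.0 to 0.349 CPM in HPBCD contralateral tissue. In the vehicle peri-infarct replicates it was 2.76, 2.27, 0.45, 0.325 and 2.28 CPM, and 1.81 CPM in vehicle contralateral replicate 3, where the others had 0.0 to 0.111 CPM. Cfap161, whose promoter is shown above, was 4.56 to 9.45 CPM against 0.0 to 0.408 CPM under HPBCD. Its vehicle peri-infarct replicates had 3.84, 2.32, 0.956, 0.557 and 2.09 CPM. Both genes thus split the vehicle libraries in the same way as Ccdc153.

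The 5 Cfap genes of highest mean level did not rise. Cfap36 was 90.9 to 101.1 CPM in HPBCD peri-infarct and 117.3 to 133.5 CPM in contralateral tissue and fell (-0.3 ± 0.08, adjusted p = 0.00495). Cfap298, which is involved in dynein arm assembly, fell from 42.6 to 48.7 CPM to 33.9 to 43.6 CPM (-0.22 ± 0.08, adjusted p = 0.0307), a call that was lost without HPBCD contralateral replicate 3, 4 or 5 or peri-infarct replicate 3 or 4 (adjusted p 0.0508 to 0.0617). Exons of other genes on the opposite strand overlap 53.6% of its exon length, and the strand option of the counting was not stated, so its reads may be shared. The same doubt touches 23 other members to a lesser extent, for example at 20.8% of the exon length in Tekt2, 9.89% in Rsph3a, 4.55% in Cfap74, 4.44% in Dnah11, 4.22% in Dnah1, 3.1% in Dnah9 and 2.08% in Dnah2. On the same strand, other genes overlap 13.2% of Rsph10b, 19.1% of Cfap299 and 3.48% of Cfap43. Cfap20 (-0.15 ± 0.08, adjusted p = 0.126, and 0.0417 without HPBCD peri-infarct replicate 5), Cfap97 (-0.09 ± 0.09, adjusted p = 0.41) and Cfap74 (-0.1 ± 0.1, adjusted p = 0.409) were not called. Nor were Cfap69, Dnah17, Rsph10b, Rsph3a and Tekt5, which with these made up the 8 tested and not called. The 6 family genes that passed no filter in this comparison were Tekt2 and the 5 named above. Per kilobase of exon, Cfap36 (35.8 CPM/kb) and Cfap298 (24.3) still had the highest levels of the members in HPBCD peri-infarct tissue, followed by Foxj1 (22.6), Rsph1 (15.2) and Ccdc153 (11.3). In vehicle contralateral tissue the same scale gave 40.1 for Cfap36, 30.1 for Cfap298, 2.92 for Foxj1, 3.17 for Rsph1 and 1.14 for Ccdc153, so that the order among the 3 others depended on the tissue.

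The near-identical dynein copies Dnah7a, Dnah7b and Dnah7c differed in direction. Of the 75-base words in their transcripts, 26.6%, 21% and 33.2%, respectively, also occur in another copy, so the authors' counting may have split or dropped reads between them. Dnah7b was 4.72, 5.71, 5.05, 6.65 and 4.89 CPM in HPBCD peri-infarct tissue and 0.846 to 1.4 CPM in contralateral tissue (2.36 ± 0.2, adjusted p = 1.38e-06). Dnah7a was 1.81 to 2.55 CPM against 1.2 to 2.02 CPM (0.64 ± 0.21, adjusted p = 0.0222, not called without HPBCD contralateral replicate 1, 2 or 5 or peri-infarct replicate 3 or 5, with adjusted p 0.0505 to 0.0646, nor with no filter, at 0.57 and 0.0859). Dnah7c was 4.14, 1.8, 3.35, 2.02 and 2.28 CPM against 3.69 to 6.7 CPM and fell (-0.82 ± 0.24, adjusted p = 0.0115). Rsph3a and Rsph3b, which share 48.8% and 49.5% of such words, were at 2.61 to 3.62 and 7.02 to 8.65 CPM in HPBCD peri-infarct tissue, and only the latter of the pair was called (Rsph3b 0.56 ± 0.15, adjusted p = 0.00611; Rsph3a -0.09 ± 0.18, adjusted p = 0.689). The difference between such copies was not tested.

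**Figure D2:**
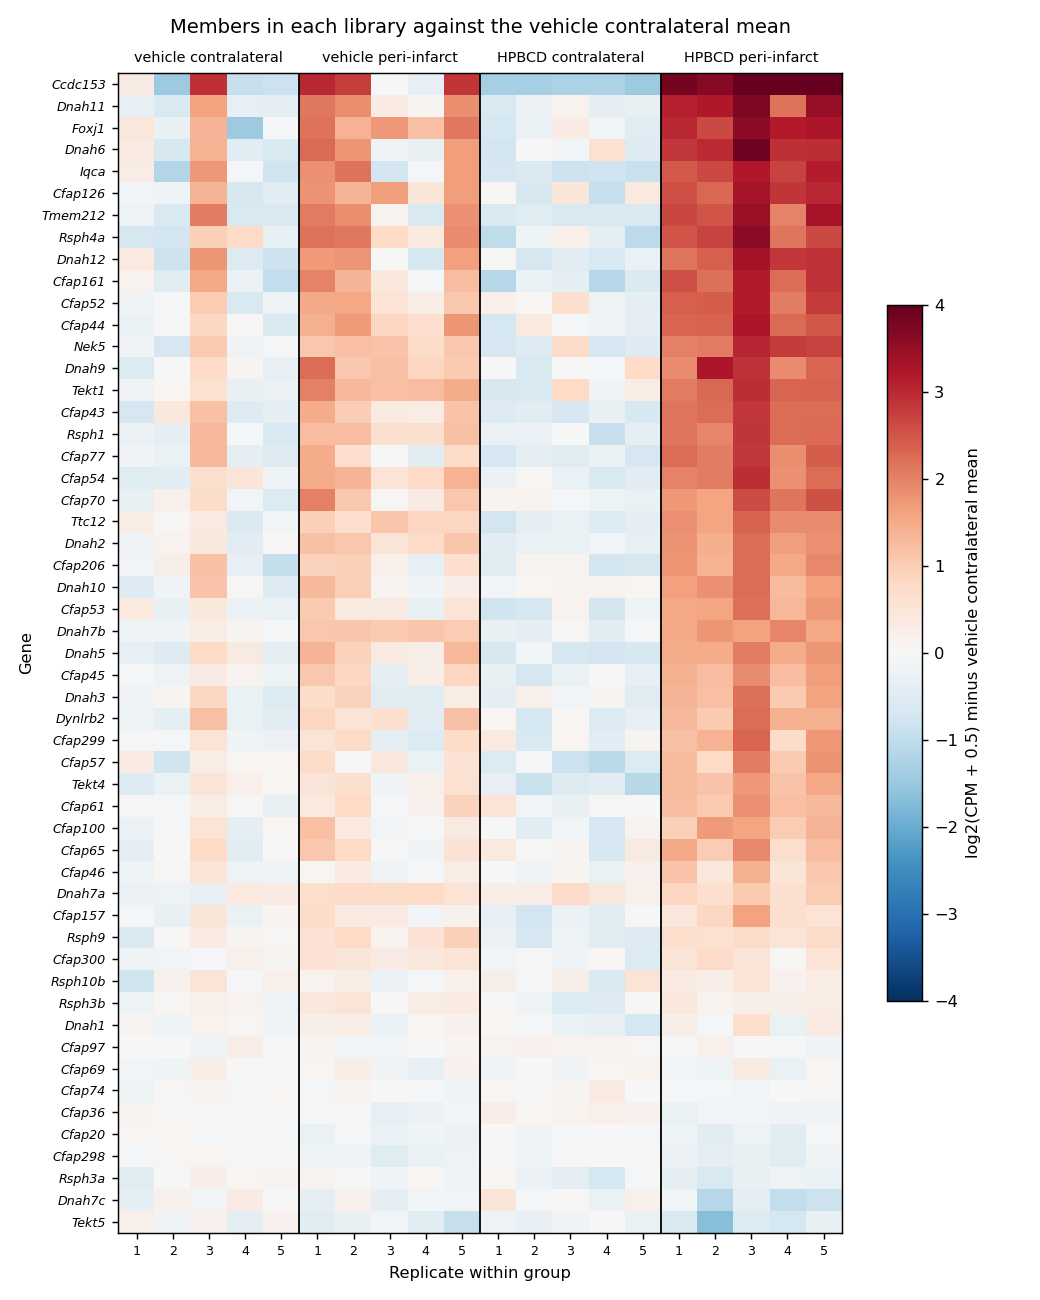
The 53 members with a mean of at least 1 CPM in the 20 libraries; colour is log2(CPM + 0.5) minus the vehicle contralateral mean, and the genes are ordered by the mean of that value in HPBCD peri-infarct tissue. Vehicle contralateral replicate 3 is the highest of its group in 45 of the 53 members, and vehicle peri-infarct replicates 3 and 4 are paler than replicates 1, 2 and 5.

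In vehicle-treated mice fewer family genes passed the test. Of 46 tested, 11 were called higher in the peri-infarct region and 1 lower, beside 10.5% and 9.7% of all genes, with a median log2 fold change of 0.55 (0.01 over all genes). The count of 12 depended on single libraries: leaving out vehicle contralateral replicate 2 gave 7 calls, and leaving out replicate 3 of that group gave 17. Over all genes the calls went from 3195 to 2260 and 2176 in these fits, so they fell in both. All 12 genes were also called in HPBCD-treated mice, in the same direction, as were 2905 of the 3178 genes called under vehicle among all 15570 tested in both. A further 25 of the 45 family genes tested in both (55.6%) were called in HPBCD-treated mice alone, beside 35.6% of all genes. These 25 include 4 of the genes that had to differ under HPBCD, and among the 34 that reached the minimum in all 5 HPBCD contralateral libraries it was 16 (47.1%), beside 35.6% of all such genes. The difference between treatments is tested by the interaction below.

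Tekt1 had the highest log2 fold change called (1.85 ± 0.29, adjusted p = 0.00264). It was 5.53, 3.1, 2.92, 2.97 and 3.65 CPM in vehicle peri-infarct tissue and 0.71 to 1.75 CPM in contralateral tissue, with no overlap. Dnah7b was even across vehicle peri-infarct libraries, at 3.38, 3.46, 3.32, 3.48 and 3.18 CPM, against 1.11 to 1.75 CPM (1.33 ± 0.17, adjusted p = 0.00148). Dnah9 was 4.97 to 13.6 CPM against 1.55 to 4.58 CPM (1.47 ± 0.34, adjusted p = 0.013), and Dnah2 was 2.53 to 4.25 CPM against 1.04 to 2.35 CPM (1.11 ± 0.23, adjusted p = 0.00815). Cfap300, a dynein arm assembly protein picked after its values were seen, was 7.76 to 9.41 CPM against 5.48 to 6.99 CPM (0.52 ± 0.11, adjusted p = 0.0103). In these 5 genes, then, every vehicle peri-infarct library, replicates 3 and 4 included, lay above every vehicle contralateral one. Cfap54, a central pair protein, and Cfap44 were also picked after their values were seen. Cfap54 was 10.7, 9.66, 5.29, 6.41 and 10 CPM against 2.32, 2.45, 5.67, 5.02 and 2.99 CPM, so that the groups overlapped through peri-infarct replicate 3 (1.2 ± 0.29, adjusted p = 0.0145). Cfap44 was 2.37 to 5.55 CPM against 0.698 to 2.71 CPM, overlapping through peri-infarct replicate 4 (1.55 ± 0.36, adjusted p = 0.0126).

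The 5 other calls in vehicle-treated mice lay close to the threshold and were lost in refits in which the fold change moved little. Rsph4a was 9.87, 9.45, 3.49, 2.51 and 8.16 CPM in peri-infarct and 0.94, 0.891, 3.98, 3.55 and 1.35 CPM in contralateral tissue (1.66 ± 0.5, adjusted p = 0.0376), and the call was lost without replicate 1, 2 or 5 of either group (log2 fold change 1.47 to 1.58, adjusted p 0.0648 to 0.0898) and with the animal as a block (1.69, adjusted p = 0.111). Cfap126 was 5.78, 4.08, 5.29, 2.0 and 5.31 CPM against 0.655 to 4.1 CPM (1.53 ± 0.47, adjusted p = 0.0387) and was not called without vehicle contralateral replicate 1, 2, 4 or 5 or peri-infarct replicate 1, 3 or 5 (1.34 to 1.48, adjusted p 0.064 to 0.0922). Rsph9 (0.65 ± 0.18, adjusted p = 0.0292) was not called without vehicle contralateral replicate 2 or 5 or peri-infarct replicate 1, 2, 4 or 5 (0.56 to 0.67, adjusted p 0.0501 to 0.07), nor with the block (0.0507). Dnah7a (0.92 ± 0.25, adjusted p = 0.0226) lost its call without vehicle contralateral replicate 2 or 3 or peri-infarct replicate 4 (0.84 to 0.89, adjusted p 0.0517 to 0.0571). Cfap298, the gene called lower (-0.24 ± 0.07, adjusted p = 0.033), was not called without vehicle contralateral replicate 1, 2, 3 or 5 or peri-infarct replicate 3, 4 or 5 (-0.25 to -0.17, adjusted p 0.0569 to 0.105), nor with the block (0.0608) or with no filter (0.0606).

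In the other direction, some genes that were not called were called without vehicle contralateral replicate 3. Rsph1 was 9.57, 9.55, 6.19, 6.22 and 9.16 CPM in vehicle peri-infarct tissue and 3.15, 2.73, 10, 3.6 and 2.29 CPM in contralateral tissue. Its log2 fold change was 0.92 ± 0.36 (edgeR adjusted p = 0.0948), 1.49 without that library (adjusted p = 0.00495) and 0.93 with all 4 groups in 1 fit (adjusted p = 0.0387). Cfap43 went from 0.9 ± 0.44 (adjusted p = 0.176) to 1.44 (adjusted p = 0.0316), and Dnah5 from 0.91 ± 0.33 (adjusted p = 0.0706) to 1.2 (adjusted p = 0.0303), or 0.92 with all 4 groups in 1 fit (adjusted p = 0.0239). The contralateral values of all 3 genes were thus highest in the same library. Tekt5 (-0.45 ± 0.18, adjusted p = 0.0986), Cfap97 (0.01 ± 0.09, adjusted p = 0.962) and Cfap74 (-0.03 ± 0.09, adjusted p = 0.826) were not called.

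**Figure D3:**
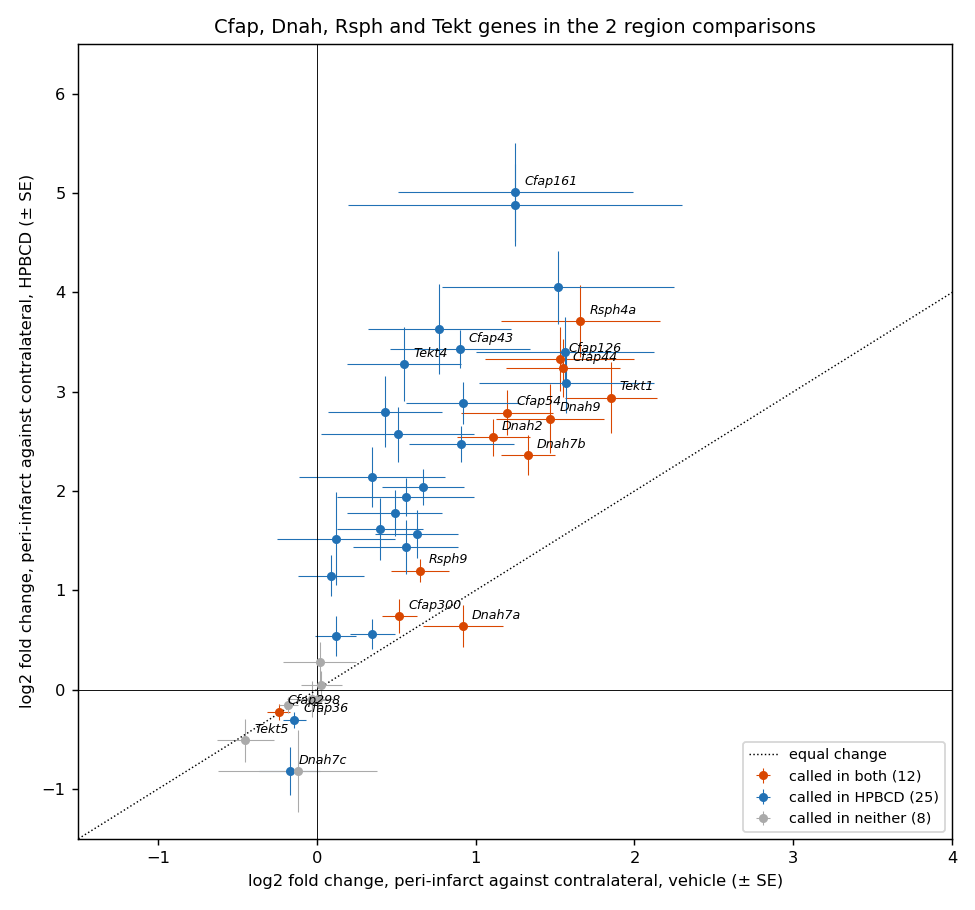
Log2 fold change (± SE) between peri-infarct and contralateral tissue of the 45 family genes tested in both treatments, in vehicle-treated (horizontal axis) and HPBCD-treated mice (vertical axis); the dotted line marks equal change. The 12 genes called in both and the 25 called in HPBCD-treated mice alone lie mostly above the line, whereas Dnah7a (0.92 and 0.64) lies below it.

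Within animals, the region difference was described over the members, which include the 7 genes chosen by their values and genes that reach this mean through the HPBCD peri-infarct group. Of the 53 members with a mean of at least 1 CPM, 45, 45, 46, 44 and 44 were higher in the peri-infarct library of HPBCD-treated animals 1 to 5, with median log2 differences from 2.1 to 2.63. In vehicle-treated animals 1, 2 and 5 the counts were 49, 48 and 45 (medians 1.5, 1.19 and 1.28). In vehicle-treated animal 4 it was 32 (median 0.13), and in animal 3 it was 13, with a median of -0.43. Across the 14795 genes with such a mean, 46.6% to 51.6% were higher in the peri-infarct library of an animal, and animal 3 had 49.2%. Of the 34 family genes that reached the filter minimum in all 5 HPBCD contralateral libraries, 24 to 26 were higher in the peri-infarct library of each HPBCD-treated animal (medians 0.98 to 1.59), and 29, 28, 8, 20 and 25 in vehicle-treated animals 1 to 5 (medians 1.07, 0.71, -0.31, 0.11 and 0.56). Vehicle-treated animal 3 was thus the one animal of 10 in which most of these genes were lower in the peri-infarct library. In that animal the log2 difference, peri-infarct minus contralateral, was -3.4 for Ccdc153, -3.62 for Iqca and -2.64 for Tmem212, while it was 0.38 for Foxj1 and 0.81 for Ttc12.

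HPBCD and vehicle were then compared within each region. In the peri-infarct region, 31 of 53 family genes tested were called higher with HPBCD and 0 lower, beside 12.4% and 9.0% of all genes, and the median log2 fold change was 1.06 (0.01 over all genes). By family these were 18 Cfap, 9 Dnah, 2 Rsph and 2 Tekt genes. HPBCD peri-infarct replicate 3, the highest library of its group in 41 of the 53 members, bore on the count: without it 13 family genes were called, and the calls over all genes went from 3471 to 823.

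Markers of other cells differed between the treatments in peri-infarct tissue too, where 12.4% of all genes were called higher with HPBCD and 9.0% lower. Genes of fibroblasts and meninges were called higher with HPBCD in 8 of 9 (median log2 fold change 2.32, above the 1.06 of the members), reactive astrocyte genes in 7 of 12 (1.07) and choroid plexus genes in 6 of 11 (1.89). Of 8 cortical projection neuron genes, 3 were called lower (-0.85). Without HPBCD peri-infarct replicate 3, as an alternative added after seeing the data, these counts were 6, 1, 1 and 0, and without any 1 library they ranged from 6 to 9, 1 to 9, 1 to 8 and 0 to 6 (leaving out vehicle peri-infarct replicate 1 gave 7, 1, 5 and 0, and replicate 2 gave 7, 4, 1 and 0). The fibroblast and meninges sum was 117.1 to 383.4 CPM in the vehicle and 451.9 to 1171 CPM in the HPBCD libraries, with no overlap, as in Foxj1 and Ccdc153. For the same comparison the paper reports Gfap, Serpina3n and Stat3, all on the reactive astrocyte list, as lower with HPBCD. It names neuronal genes outside the cortical list as higher. Here 0 of the 12 reactive astrocyte genes were called lower, and why the directions differ was not tested. The part of these lists in the members' difference was not tested either.

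The family genes of lowest p in this comparison were Rsph1, Cfap126 and Cfap43. Rsph1 had a mean of 20.9 CPM ± 5.49 with HPBCD and 8.14 ± 1.77 with vehicle (1.38 ± 0.19, edgeR adjusted p = 0.0127). Cfap126 had 12.5 ± 3.37 and 4.49 ± 1.53 CPM (1.5 ± 0.27, adjusted p = 0.0128), and Cfap43 had 10.5 ± 2.36 and 3.54 ± 1.38 CPM (1.58 ± 0.26, adjusted p = 0.0128). In each of these 3, the lowest HPBCD library was above the highest vehicle one. Dnah7b (0.7 ± 0.14, adjusted p = 0.0133), Dnah2 (0.99 ± 0.19, adjusted p = 0.0133), Tekt4 (1.31 ± 0.26, adjusted p = 0.0139) and Tekt1 (1.06 ± 0.23, adjusted p = 0.0159) kept their calls without any 1 library. Dnah6 was 5.73, 3.87, 0.675, 0.557 and 3.61 CPM with vehicle and 8.61 to 18.8 CPM with HPBCD (1.98 ± 0.52, adjusted p = 0.0268), and was not called without HPBCD replicate 3 (0.0732) or vehicle replicate 2 (0.0527). Calls of Dnah9, Dnah5, Rsph4a and Cfap77 were also lost without HPBCD replicate 3 (adjusted p 0.0529 to 0.106). Without vehicle replicate 2 or 4, or HPBCD replicate 5 (Dnah5, Rsph4a), HPBCD replicate 4 (Dnah5), vehicle replicate 5 (Dnah9, Rsph4a) or vehicle replicate 1 or 3 (Rsph4a), the adjusted p of Dnah9, Dnah5 and Rsph4a was 0.0548 to 0.0791. Rsph9, Dnah7a, Cfap36, Cfap298, Cfap20, Cfap97 and Cfap74 were not called, with log2 fold changes from -0.05 to 0.2.

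In contralateral tissue, 0 of 38 family genes tested were called between HPBCD and vehicle by edgeR, beside 0.0% of all genes (0 of 15469). At an unadjusted p under 0.05 there were 5 family genes and 1224 genes in all, and DESeq2 called 0 family genes and 53 genes in all. The median log2 fold change of the family genes was -0.25, and 10 of 38 were positive. Rsph9 had the smallest p (-0.49 ± 0.17, adjusted p = 0.555), with 4.64 to 6.56 CPM under HPBCD and 5.03 to 9.88 CPM under vehicle.

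The difference between the region contrasts was tested itself with the region by treatment interaction, since a call in only 1 treatment does not show one. The interaction was called in 18 of 53 family genes, each with a larger region difference under HPBCD, beside 5.03% of all genes called in that direction. These 18 include 6 genes (Cfap53, Cfap58, Cfap73, Cfap77, Cfap161 and Tekt4) under the filter minimum in all 5 HPBCD contralateral libraries, whose region difference under HPBCD had to be high and for which no p is given. Among the 34 family genes that reached the minimum in all 5, 11 were called (32.4%), beside 4.88% of all such genes, with a median interaction term of 0.9 (-0.02 over all such genes). The lowest p outside these 6 belonged to Cfap43 (2.52 ± 0.51, adjusted p = 0.0156) and Dnah2 (1.41 ± 0.3, adjusted p = 0.0161). Rsph1 (1.96 ± 0.44, adjusted p = 0.0184) and Dnah7b (1.02 ± 0.24, adjusted p = 0.02) were called too. So was Dnah5 (1.55 ± 0.4, adjusted p = 0.026), but not with the animal as a block (0.0605), nor without HPBCD contralateral replicate 4, HPBCD peri-infarct replicate 3 or vehicle peri-infarct replicate 2 (adjusted p 0.0501 to 0.0537). Tekt1 (1.07 ± 0.49, adjusted p = 0.155, and 0.0498 without HPBCD contralateral replicate 3) and Dnah9 (1.25 ± 0.51, adjusted p = 0.113), which rose in both treatments, were not called. The count was 11 without any one of HPBCD contralateral replicate 4, HPBCD peri-infarct replicate 3, vehicle contralateral replicate 3 or vehicle peri-infarct replicate 2, so that each of these libraries bore on it. Over all genes the calls in either direction went from 1577 to 704, 555, 857 and 529 in these fits, so the fall was not particular to the members.

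Other motile cilia genes, outside the rule, were also examined. From a list of 70 such genes (arm and docking proteins, assembly factors, central pair proteins), 53 were called higher and 2 lower of 67 tested in the HPBCD region comparison, with a median log2 fold change of 2.34. Of the 53, 17 were under the minimum in all 5 HPBCD contralateral libraries and had to differ. Of the 32 list genes that reached it in all 5, 18 were called higher (56.2%, median 0.5), beside 27.5% of all such genes. In vehicle-treated mice it was 13 higher and 1 lower of 57, beside 10.5% and 9.7% of all genes (8 in all without vehicle contralateral replicate 2 or 5, 7 without vehicle peri-infarct replicate 5 and 22 without vehicle contralateral replicate 3). For HPBCD against vehicle in the peri-infarct region it was 44 higher and 2 lower of 68, beside 12.4% and 9.0% of all genes. Without HPBCD peri-infarct replicate 3 it was 21 in all, and the calls over all genes went from 3471 to 823. The list genes of highest level were Dnal1 (means of 90.3 and 75.3 CPM in HPBCD contralateral and peri-infarct tissue), Tppp3 (24.7 and 84.9), Dcdc2a (26.6 and 29.4) and Poc1a (20.8 and 11.6), and of these Tppp3 rose (1.83, edgeR adjusted p = 1.97e-06) and Poc1a fell (-0.8, adjusted p = 0.000374). Hydin, a central pair protein singled out after its values were seen, was 5.64 to 13.4 CPM in HPBCD peri-infarct tissue and 0.0 to 0.459 CPM in contralateral tissue, with no overlap. In vehicle peri-infarct replicates it was 5.42, 4.29, 1.46, 1.3 and 2.23 CPM, and 3.19 CPM in vehicle contralateral replicate 3, where the others had 0.0997 to 0.498 CPM.

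Of 18 genes of ciliated cell transcription and basal bodies, 14 were called higher of 17 tested under HPBCD, 4 of which had to differ in the same way, and 3 of 12 under vehicle. Over all genes, 30.3% and 10.5% were called higher. Of the 9 list genes that reached the minimum in all 5 HPBCD contralateral libraries, 7 were called higher (77.8%), beside 27.5% of all such genes. Rfx3, a regulator of ciliary genes, was 29.4, 30.5, 31.6, 58.8 and 26.1 CPM in vehicle contralateral and 47.4 to 75.8 CPM in vehicle peri-infarct tissue (0.82, edgeR adjusted p = 0.0208), and 25.3 to 34.1 against 49.1 to 59.0 CPM under HPBCD (0.92, adjusted p = 6.32e-06). Rfx4 rose in both as well (0.79, adjusted p = 0.00755 under vehicle and 1.29, adjusted p = 1.38e-06 under HPBCD), and Cep63 and E2f4 were not called in either. Rfx2, singled out after its values were seen, was 3.27, 4.18, 4.39, 4.18 and 4.41 CPM in vehicle peri-infarct tissue, 1.2 to 3.13 CPM in vehicle contralateral tissue, and 5.86 to 9.82 CPM in HPBCD peri-infarct tissue. Its values in vehicle peri-infarct replicates 3 and 4 were as high as in the others of that group, unlike those of Ccdc153. Gmnc, which starts the programme of multiciliated cells and was also singled out afterwards, was 1.89, 0.465, 1.18, 1.49 and 2.89 CPM in vehicle peri-infarct tissue against 0.0557 to 0.449 CPM, and 2.26 to 3.96 CPM in HPBCD peri-infarct tissue.

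Genes of intraflagellar transport and the primary cilium, which most brain cells carry, gave 11 higher and 4 lower of 32 under HPBCD (34.4% higher, close to the 30.3% of all genes) and 0 higher and 3 lower under vehicle, with medians of 0.1 and 0.09. The list sum was 777.7 to 1032 CPM in HPBCD peri-infarct and 857.4 to 1008 CPM in vehicle contralateral libraries, so these ranges overlapped. Kif3a and Kif3b, subunits of the transport motor, were not called in either region comparison, and the means of Kif3a were 145.9 CPM ± 21.1 in HPBCD contralateral and 117.7 ± 33.5 in HPBCD peri-infarct tissue. Of 10 ependyma genes that are not parts of cilia, 8 were tested and called higher under HPBCD, beside 30.3% of all genes. Under vehicle it was 3 of 7 (S100b, Sox2 and Rarres2), beside 10.5% of all genes. The latter count was 5 with the animal as a block and 2 to 4 in the other alternatives, and S100b (0.45, edgeR adjusted p = 0.0494) was not called under other scaling factors, without the filter, with all 4 groups in 1 fit or without any 1 of 9 libraries (adjusted p 0.0527 to 0.0922). Under HPBCD, Pltp, a lipid transfer protein (1.58, edgeR adjusted p = 2.68e-06), S100b (1.06, adjusted p = 0.000131), Nes (0.88, adjusted p = 7.64e-05) and Sox2 (0.64, adjusted p = 0.000277) rose, and all 4 are also expressed by astrocytes or progenitors. Cd24a, a surface protein of ependymal cells and neuroblasts singled out after its values were seen, was 23.1 to 48.1 CPM in HPBCD peri-infarct, 1.77 to 3.35 CPM in HPBCD contralateral, 7.61 to 14.2 CPM in vehicle peri-infarct and 11.9 CPM in vehicle contralateral replicate 3 (1.95 to 4.65 CPM in the other 4). Rax and Mia, other markers of ependymal and tanycyte lineages, were at 0.0 to 0.337 CPM in all libraries. The lists were drawn up with earlier results of these data known and are no independent evidence of direction.

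The libraries were compared for tissue of the ventricle wall and of its neighbours by summing the CPM of marker lists. The choroid plexus list (16 genes, led by Ttr, a thyroid hormone carrier) was 5.28 to 19.5 CPM in vehicle contralateral, 91.2, 36.1, 17.4, 18.5 and 12.3 CPM in vehicle peri-infarct and 37.0, 233.3, 739.5, 172.1 and 50.4 CPM in HPBCD peri-infarct replicates 1 to 5. HPBCD contralateral replicate 3 had 693.5 CPM, with Ttr at 582.0 CPM, and the other 4 had 5.6 to 10.3 CPM. That library had 0.0698 CPM of Ccdc153, as low as its group, and Foxj1 at 7.89 CPM was the highest of its group. Vehicle contralateral replicate 3, high in Ccdc153, had 9.22 CPM of the choroid plexus list. In these 2 contralateral libraries, then, either Ccdc153 or the choroid plexus list was high without the other. Over the 53 members, however, HPBCD contralateral replicate 3 had the highest mean log2 CPM of its group, at 1.03 (others 0.62 to 0.77). It held the group's highest value in 15 of them and the lowest in 3. In the peri-infarct region both were high together in all 5 HPBCD libraries, with replicate 3 highest in both, and in vehicle replicates 1 and 2, whereas vehicle replicate 5 had high Ccdc153 and the lowest choroid plexus sum of its group. The order otherwise differed: HPBCD replicate 2 had a sum of 233.3 CPM with the lowest Ccdc153 of its group (16.6 CPM). HPBCD replicate 5 had 50.4 CPM with Ccdc153 at 25.7 CPM. The sum of HPBCD replicate 1 (37.0 CPM) was under that of vehicle replicate 1 (91.2 CPM). The part of choroid plexus RNA in the members' values was not tested.

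The striatal neuron list (13 genes, among them Penk, Ppp1r1b and Pde10a) was 4222 CPM in vehicle contralateral replicate 1 and 249.0 to 331.1 CPM in the other 4 of that group. It was 1203, 1192, 2445, 1523 and 407.4 CPM in the vehicle peri-infarct replicates, 254.4 to 306.0 CPM in HPBCD contralateral and 834.8 to 2378 CPM in HPBCD peri-infarct libraries. Vehicle peri-infarct replicate 3 thus had much striatal RNA and little Ccdc153, and replicate 5 the reverse. Under HPBCD, 13 of 13 striatal genes were called higher in the peri-infarct region and 6 of 8 cortical projection neuron genes lower. Over all genes, 30.3% were called higher and 24.3% lower. Of the 13, 1 was under the filter minimum in all 5 HPBCD contralateral libraries and had to differ. The cortical sum was 547.2 to 1921 CPM in HPBCD peri-infarct and 2197 to 2642 CPM in HPBCD contralateral tissue. In vehicle-treated mice 0 of 13 striatal genes and 1 of 8 cortical ones were called, the latter lower. Over all genes, 10.5% were called higher and 9.7% lower there. Vehicle contralateral replicate 1 decided the striatal count, since 13 of 13 were called higher without it, as an alternative added after seeing the data. These shifts of regional markers stand beside the members' rise under HPBCD, and their part in it was not tested.

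The hippocampal list was 198.2 CPM in vehicle peri-infarct replicate 1 and 367.4 CPM in HPBCD peri-infarct replicate 2, against 42.2 to 57.4 CPM in the other 18 libraries. Reactive astrocyte genes were called higher in 12 of 12 in both treatments, beside 30.3% of all genes under HPBCD and 10.5% under vehicle. Of the 12, 1 was under the filter minimum in all 5 HPBCD contralateral libraries and had to differ under HPBCD. The sum of these genes was 808.8 to 3847 CPM in vehicle peri-infarct, 3342 to 6606 CPM in HPBCD peri-infarct and 230.3 to 442.9 CPM in contralateral libraries. Within the vehicle peri-infarct group it was lowest in replicate 2 (808.8 CPM) and highest in replicate 3 (3847 CPM), unlike Ccdc153. Mature oligodendrocyte genes (10 of 10 higher under HPBCD, 0 under vehicle) summed to 13023 to 19462 CPM in HPBCD peri-infarct and 5911 to 7419 CPM in HPBCD contralateral libraries, and to 6409 to 15302 and 4753 to 12398 CPM in the vehicle ones. Genes of fibroblasts and meninges (9 of 9 higher under HPBCD, 2 under vehicle) reached 451.9 to 1171 CPM in HPBCD and 117.1 to 383.4 CPM in vehicle peri-infarct libraries. Those of subventricular progenitors and neuroblasts (8 higher and 4 lower of 13 under HPBCD, 2 higher and 1 lower of 11 under vehicle) stayed between 121.3 and 180.8 CPM in all 20. Of these 8, 2 were under the filter minimum in all 5 HPBCD contralateral libraries and had to differ. The part of each of these in the members' values was not tested.

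**Figure D4:**
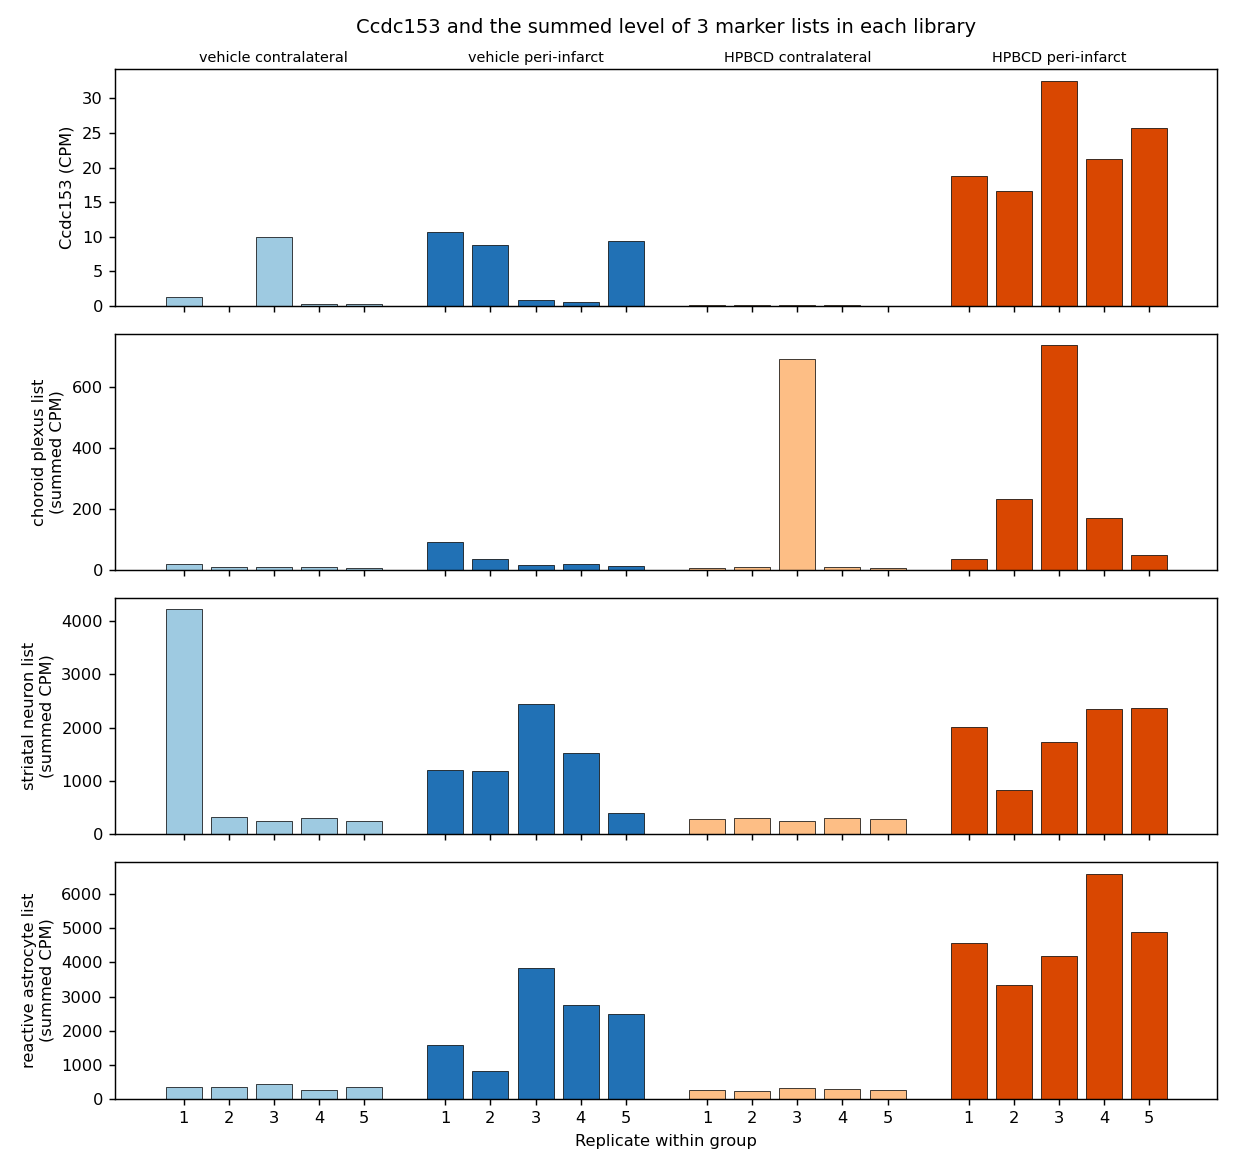
Ccdc153 (CPM) and the summed CPM of the choroid plexus, striatal neuron and reactive astrocyte lists in each library (bars, by replicate within group). Among the contralateral libraries, vehicle replicate 3 is high in Ccdc153 (9.94 CPM), HPBCD replicate 3 in the choroid plexus list (693.5 CPM) and vehicle replicate 1 in the striatal list (4222 CPM), and all 5 HPBCD peri-infarct libraries are high in Ccdc153 and in the astrocyte list.

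Variation of the members within groups was then described. For each library the mean deviation of the 53 members from their group means was taken on the log2 CPM scale, and all 13666 protein-coding genes with a mean of at least 1 CPM were ranked by their Pearson correlation with it over the 20 libraries, as a description with no test. These points share library depth and dissection. Outside the rule, the 12 genes most like the members were Cdhr3 and 1700012B09Rik (r of 0.96 each), Ccdc180, Fam216b and Ccdc81 (0.91), Stoml3 and Lrrc23 (0.9), Spata18 (0.89), Ak7, Ubxn10 and Ccdc121 (0.88) and Col6a5 (0.87). Of them Fam216b, Lrrc23, Spata18 and Ak7 also stood on the lists above. Without vehicle contralateral replicate 3 and vehicle peri-infarct replicate 4, the libraries farthest from the median, r was 0.93 for Cdhr3 and 0.76 to 0.92 for the other 11. Cdhr3, a cadherin-related protein, had means of 1.61 and 2.8 CPM in vehicle contralateral and peri-infarct tissue and 0.997 and 7.77 CPM in the HPBCD groups.

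Among the members themselves, which enter that mean, r was under 0.4 in 11 of 53, 2 of them negative. Tmem212 (r of 0.94), Dnah11 (0.93), Ccdc153 and Cfap77 (0.9) followed it most closely. Foxj1 (0.65), Tekt1 (0.59), Dnah9 (0.51), Ttc12 (0.39), Dnah7b (0.31) and Dnah7a (-0.14) followed it less. In the former genes vehicle peri-infarct libraries 3 and 4 were low, and in the latter they were nearer to the rest of the group. Library 4 was still the lowest of the group in Foxj1 (14.5 CPM) and Dnah9 (4.97 CPM), and library 3 in Tekt1 (2.92 CPM).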

How the data were processed

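RNA was sequenced from peri-infarct and contralateral brain tissue of 5 vehicle-treated and 5 HPBCD-treated mice (stranded mRNA libraries, paired reads). The authors made base calls with bcl2fastq 2.19, trimmed with Trimmomatic 0.32, aligned to GRCm38 with STAR 2.5.2b and counted with htseq-count, and deposited 1 table of raw counts per library. The strand option and annotation release of the counting are not given in the sources used here. Library sizes exclude the 5 summary lines at the end of each table (4.39% to 9.5% of read pairs in no feature, 3.94% to 8.03% ambiguous, 16.58% to 24.3% not unique). Gene counts per library ran from 14445021 to 22171627 (median 19008532). Of 46078 Ensembl identifiers, 45229 (98.16%) had a symbol in GENCODE M21, which also gave coordinates and exon lengths.

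Counts were tested with edgeR 4.0.16 in R 4.3.3 (TMM factors, filterByExpr, quasi-likelihood F test, Benjamini-Hochberg adjustment over all genes tested, threshold 0.05), fitted on the groups compared, or on all 4 for the interaction. The standard error of a log2 fold change is its size divided by the root of F. Counts were simulated for these libraries with the spread that edgeR estimated for each gene. On them, edgeR recovered 60.5% (interaction) to 75.5% (HPBCD region comparison) of 200 genes changed 2-fold, and 3.2% to 7.5% of its calls were unchanged genes (14.5% to 20.7% for DESeq2). The members, the gene lists and the half-site letters were chosen with earlier results of these data known. The genes singled out by rule were the 7 named one by one, the members of highest mean level in each family (5, or 3 tektins), those with the lowest p in the HPBCD and interaction comparisons (3 each), the extremes of each region comparison, all called lower, near-identical copies, up to 4 genes per list, and the 12 genes most correlated with the members.

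Libraries of the same number within a treatment carry the same identifier in the deposited records, which was read as the same animal. The check of pairing gave a mean correlation of deviations from group means of 0.114, over 0.1 in 6 of 10 pairs, and the fit with the animal as a block was an alternative. Between treatments a shared number is only a name. The other alternatives were DESeq2 1.42.0, other scaling factors, no filter on low counts, a fit of all 4 groups, and each library left out in turn.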

Additional observations from a re-analysis of the deposited data

Results flagged for a closer look

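Within groups of 5 libraries, 19 of 112 groups tested, over family genes named by rule and 3 marker sums, had a library whose gap to its nearest neighbour exceeded 0.71 of the group's range (Dixon's 95% value). For normally distributed values about 1 in 20 groups would pass. These groups share the same 20 libraries and many of the genes move together, so they are not independent. The 19 were therefore not tested against that rate. Vehicle contralateral replicate 3 was such a library for Rsph1 (10 CPM, others up to 3.6), Cfap126 (4.1) and Cfap77 (1.45). HPBCD peri-infarct replicate 3 was one for Rsph1 (30.3 CPM), Rsph4a (27.5), Dnah6 (18.8), Cfap43 (14.6) and Tekt1 (11), and for the choroid plexus sum (739.5 CPM). HPBCD contralateral replicate 3 stood out in the choroid plexus sum (693.5 CPM) and the striatal sum (254.4, others 294.8 to 306.0).

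Vehicle peri-infarct replicate 1 stood out in Dnah9 (13.6 CPM), Tekt1 (5.53) and the hippocampal sum (198.2), and vehicle contralateral replicate 1 in the striatal sum (4222 CPM). HPBCD peri-infarct replicate 2 stood out in the hippocampal sum (367.4 CPM) and in Cfap97 (34.5), HPBCD peri-infarct replicate 1 in Cfap36 (90.9, the lowest), and HPBCD contralateral replicate 2 in Dnah5 (3.47).

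The region difference itself differed between treatments (edgeR interaction term) in Cfap43 (log2 difference 2.52, adjusted p = 0.0156), Rsph1 (1.96, adjusted p = 0.0184), Dnah5 (1.55, adjusted p = 0.026), Dnah2 (1.41, adjusted p = 0.0161) and Dnah7b (1.02, adjusted p = 0.02), in each case larger under HPBCD. Of these, Dnah5 was not called with the animal as a block (1.53, adjusted p = 0.0605) or without any 1 of 3 libraries (adjusted p 0.0501 to 0.0537).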

How the results depend on the processing

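With the animal as a block (the replicate block), 9 family genes were called in the vehicle region comparison (12 without it), 45 in the HPBCD one (44), 31 for HPBCD against vehicle in peri-infarct tissue (31), where the number is only a name, 0 in contralateral tissue and 13 for the interaction (18). Over all genes the calls were 3053, 8860, 4375, 1 and 1830 with the block, and 3195, 8764, 3471, 0 and 1577 without it. Under DESeq2 these counts were 18, 47, 34, 0 and 24, and on simulated counts DESeq2 made more false calls than edgeR (above). Leaving out 1 library at a time gave 7 to 17 family genes in the vehicle region comparison, 41 to 45 in the HPBCD one, 13 to 34 for HPBCD against vehicle in peri-infarct tissue, 0 in contralateral tissue and 11 to 24 for the interaction. Over all genes the same fits gave 2000 to 3920, 8043 to 9382, 823 to 5339, 0 and 529 to 3121 calls. Rsph1 and Dnah5 were called in the vehicle region comparison by DESeq2 (adjusted p = 0.0488 and 0.031) and with all 4 groups in 1 fit (0.0387 and 0.0239). Of 4915 refits of single named genes, 4679 kept their direction and side of the threshold, 180 lost a call, 47 gained one, 0 reversed, and 9 values given with no test moved by more than the spread between replicates, all of them without contralateral replicate 3 of either treatment. The other scaling factors and DESeq2 moved the median of all genes by -0.03 to 0.03 (log2). Counts for 8 of the lists were recomputed as an alternative chosen after seeing the data: for HPBCD against vehicle in peri-infarct tissue, the 46 calls among other motile cilia genes became 21 without HPBCD peri-infarct replicate 3, and their 25 interaction calls became 13 to 16 without HPBCD contralateral replicate 1, 4 or 5, HPBCD peri-infarct replicate 3, vehicle contralateral replicate 3 or vehicle peri-infarct replicate 2. Of the 25 interaction calls, 7 were genes under the filter minimum in all 5 HPBCD contralateral libraries. The region difference of these 7 under HPBCD had to be high. Of the 32 list genes that reached the minimum in all 5, 8 had a called interaction, beside 4.88% of all such genes. Depth limits the members under 1 CPM, 12 of the 65.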
